A study of Rattus norvegicus with 36 samples.

Results

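Hox genes encode homeodomain transcription factors that lie side by side in 4 clusters, Hoxa, Hoxb, Hoxc and Hoxd, and their levels were compared here between the colon and the ileum of rats and over the course of diabetes. The members were all rows of the count table named Hoxa, Hoxb, Hoxc or Hoxd followed by a number, which were 36 of 24773 rows: 8 Hoxa, 10 Hoxb, 9 Hoxc and 9 Hoxd genes. The number is the paralogue number, by which genes at matching places of the clusters are named. Male UCD-T2DM rats, a cross of obese Sprague-Dawley and Zucker diabetic lines that becomes obese, insulin resistant and then diabetic without an added agent, gave proximal colon and distal ileum, and 1 library was made from each tissue of 18 rats. ND rats were not diabetic and 70 days old, D1M rats were 168 to 172 days old with diabetes for 22 or 23 days, and D3M rats were 172 or 173 days old with diabetes for 88 to 116 days. All groups carried the same obese background without a lean control, and ND rats were younger, so that age and diabetes cannot be told apart in comparisons with ND.

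In the embryo, Hox genes at one end of each cluster are switched on early and far forward along the body, and genes toward the other end later and further back, so that a region is marked by the set of Hox genes it uses. Part of this pattern is kept in the adult gut, in epithelium and in the muscle and connective tissue around it. Hox proteins bind DNA together with cofactors of the Pbx, Meis and Pknox families, and Polycomb proteins keep silent Hox genes off.

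Of the 36 libraries, 34 were used, 17 from each tissue with 5 ND, 6 D1M and 6 D3M rats. The libraries held 10024041 to 18299050 counts in colon and 12279059 to 21510043 in ileum. The ileum library of ND rat K4040 and the colon library of ND rat K4028 were left out of the comparisons because each held RNA of the other tissue. Car1, a carbonic anhydrase of colonic surface cells, reached 3863 CPM (counts relative to library size, with TMM scaling) in ileum K4040, against 2.51 to 1495 in the other ileum libraries. Fabp6, which carries bile acids inside ileal enterocytes, reached 8191 CPM in colon K4028, against 1.89 to 19.9 in the other colon libraries. The labels of the remaining libraries matched these markers, with Car1 at 18624 to 31474 CPM in the 17 colon libraries and Fabp6 at 12907 to 36125 CPM in the 17 ileum libraries. The highest ileal Car1, 1495 CPM, belonged to the library of D3M rat P762, which was kept.

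Before any test, 11 of the 36 members had no count in any of the 36 libraries. They were 7 of the 8 Hoxa genes, together with Hoxb1, Hoxc11, Hoxc12 and Hoxc13. The remaining Hoxa row, Hoxa10, had a single count in 1 colon library. The emptiness reached beyond the named genes: 16 rows of chromosome 4 that lie between Skap2 and Hibadh, genes that flank the Hoxa cluster, held at most 2 counts in any library, whereas the median library held 1418 counts of Skap2 and 2060.5 of Hibadh. How reads of this stretch fared in alignment and counting was not tested, so these counts carry no statement on Hoxa expression in the gut. Another 5 members, Hoxa10, Hoxb13, Hoxc10, Hoxd1 and Hoxd12, had counts but too few to pass the filter on low counts, which left 20 members for testing: 8 Hoxb, 5 Hoxc and 7 Hoxd genes. On the rn6 build used for the counts, the plus strand carries Hoxd13 to Hoxd1 on chr3:61590376-61687758, Hoxc13 to Hoxc4 on chr7:144531814-144650129 and Hoxb13 to Hoxb1 on chr10:84031955-84215687, with the paralogue number falling along each cluster.

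For Hoxd10 and Hoxd9, neighbours in the Hoxd cluster that stood far higher in colon than in ileum, and for Hoxc4, the only Hoxc gene with an entry, the RefSeq promoter window of the GRCr8 assembly is shown from 250 bases before the start of the gene to 50 after it, with each CG pair in capitals. CG pairs are where DNA is methylated, and promoters rich in them are those that Polycomb proteins can hold.
Hoxd10, chr3:80001697-80001996, plus strand: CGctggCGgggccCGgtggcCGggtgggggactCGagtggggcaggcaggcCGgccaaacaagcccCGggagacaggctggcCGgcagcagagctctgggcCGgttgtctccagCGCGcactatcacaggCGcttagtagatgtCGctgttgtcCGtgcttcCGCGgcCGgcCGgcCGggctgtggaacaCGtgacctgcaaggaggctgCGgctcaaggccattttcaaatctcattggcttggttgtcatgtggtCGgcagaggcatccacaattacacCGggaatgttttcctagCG
Hoxd9, chr3:80007756-80008055, plus strand: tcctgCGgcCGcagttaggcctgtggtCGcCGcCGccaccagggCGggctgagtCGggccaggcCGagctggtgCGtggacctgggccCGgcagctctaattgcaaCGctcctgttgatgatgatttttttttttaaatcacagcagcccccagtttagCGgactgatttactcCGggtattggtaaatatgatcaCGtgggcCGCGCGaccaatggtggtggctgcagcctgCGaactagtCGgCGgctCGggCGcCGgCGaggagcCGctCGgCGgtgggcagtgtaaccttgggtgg
Hoxc4, chr7:136048809-136049108, plus strand: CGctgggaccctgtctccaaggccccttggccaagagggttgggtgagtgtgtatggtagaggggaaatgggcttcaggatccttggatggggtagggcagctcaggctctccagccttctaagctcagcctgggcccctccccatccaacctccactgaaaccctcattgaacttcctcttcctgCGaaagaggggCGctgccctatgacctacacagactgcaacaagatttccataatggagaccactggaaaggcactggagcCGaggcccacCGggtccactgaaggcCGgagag

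The Hoxd10 window held 24 CG pairs, the Hoxd9 window 27 and the Hoxc4 window 6, while the median over 33469 windows of this length was 7 and 94.5% of them held at least 1 pair. Windows were found for 17 of the 36 members, 9 of them Hoxd genes, and 16 of the 17 held more pairs than that median, all but Hoxc4. The windows of the 9 Hoxd genes ranged over 12 to 49 pairs, and those of 6 Hoxa genes over 13 to 34. The letters TTTAT, the core that Cdx proteins of the gut bind, were searched on both strands and found in 5 of the 17 windows, among them those of Hoxd4 and Hoxd13, against 42.5% of all windows. The letters TGATTNAT, which Hox and Pbx proteins bind together, were found in 1 of the 17, that of Hoxd11, against 3.18% of all windows.

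Each Hoxd gene tested was higher in colon than in ileum and each Hoxc gene tested was lower, while 7 of the 8 Hoxb genes tested were higher in colon by smaller differences than the Hoxd genes (edgeR quasi-likelihood test with flow cell and group as terms, colon over ileum, Benjamini-Hochberg adjusted over 13801 genes). Among the 20 members tested, 14 were higher and 5 lower in colon, and Hoxb2 did not pass. Of all genes tested, 38% were called higher and 34.7% lower, so that a call alone says little. Moreover, members counted only or almost only in 1 tissue passed the filter through that tissue and were bound to differ. The count of calls, and the adjusted p of such members, are thus an account of the members rather than support. In 10 of the 20 members the ranges of the 2 tissues did not overlap in any library, 7 with colon above ileum and 3 with colon below, where the share over all genes was 17.3%. This count too is an account only, because members with almost no counts in 1 tissue could hardly overlap. The 7 were all Hoxd genes tested, and the 3 were Hoxc5, Hoxc6 and Hoxc8.

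**Figure D1:**
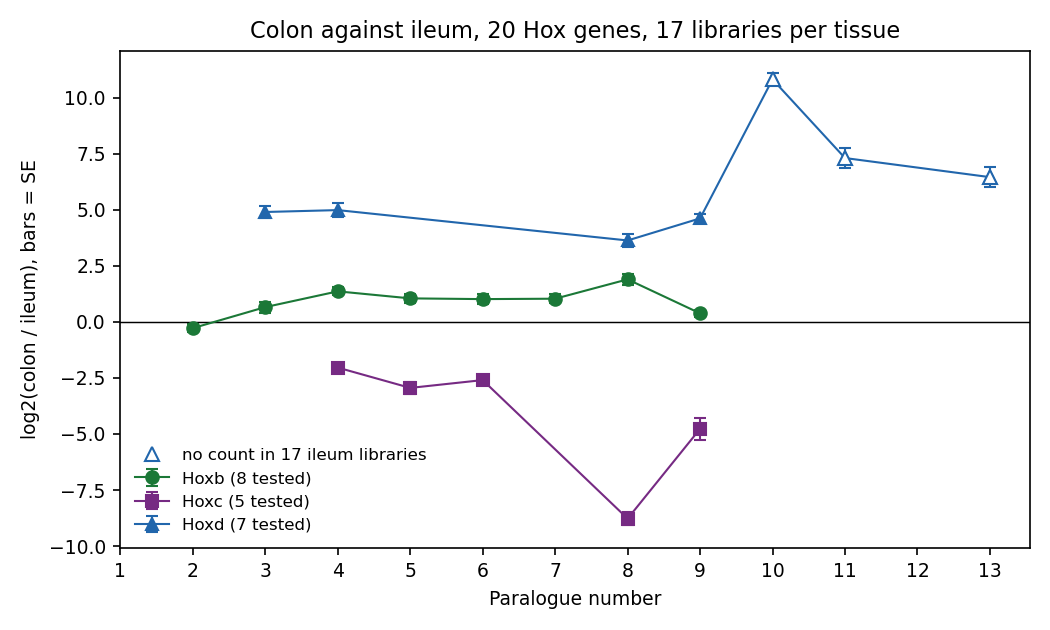
Fitted log2 ratio of colon over ileum (vertical axis) by paralogue number for the 20 Hox genes tested, 17 libraries in each tissue. Bars are standard errors worked back from the F test, and for genes at or near 0 in a tissue they understate the uncertainty of the ratio. The Hoxd points lie between 3.63 and 10.81, the Hoxc points between -8.77 and -2.04 and the Hoxb points between -0.28 and 1.89, and open triangles mark genes without a count in any of the 17 ileum libraries, for which the fitted value depends on a small added count and is not a bound.

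Hoxd10, a gene of the posterior side of the cluster with roles in hindlimb and spinal cord, was counted in every colon library and in no ileum library. Colon libraries ranged from 8.04 to 19.1 CPM with a median of 12.5, against 0 counts in all 17 ileum libraries. In total the colon held 3616 counts, which made Hoxd10 at least 1300.5-fold higher in colon when the ileum was set to a floor of 3 counts over its 17 libraries. Hoxd11 and Hoxd13, still further toward the posterior end and best known for limb and urogenital patterning, showed the same pattern at lower values. Hoxd11 ranged from 0.322 to 1.99 CPM in colon with a median of 1.30, against 0 counts in ileum, at least 121-fold higher. Hoxd13 ranged from 0.257 to 1.29 CPM in colon with a median of 0.656, against 0 counts in ileum, at least 59.0-fold higher. No colon library of the 17 lacked any of these 3 genes. Hoxd12, which lies between Hoxd11 and Hoxd13, had 1 count in colon and none in ileum.

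Hoxd genes nearer the anterior end were also far higher in colon, but most ileum libraries held a few counts of them. Hoxd9 ranged from 8.12 to 21.7 CPM in colon with a median of 14.2, against 0.228 to 1.31 CPM in ileum with a median of 0.473. The difference was 4.61 on the log2 scale (SE 0.19, adjusted p = 2.0e-20), and all 17 ileum libraries held counts. Hoxd8 ranged from 0.724 to 4.39 CPM in colon with a median of 2.42, against 0 to 0.452 CPM in ileum with a median of 0.157, a difference of 3.63 (SE 0.30, adjusted p = 1.4e-12). The lowest colon library still lay above the highest ileum library. In the embryo Hoxd8 and Hoxd9 act in the lower trunk and, for Hoxd9, the limbs.

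Hoxd3 and Hoxd4 are known for patterning the neck vertebrae. Hoxd3 ranged from 3.81 to 8.84 CPM in colon with a median of 5.84, against 0 to 0.455 CPM in ileum with a median of 0.159. Hoxd4 ranged from 3.71 to 7.71 CPM in colon with a median of 5.99, against 0 to 0.538 CPM in ileum with a median of 0.148. Their differences were 4.90 (SE 0.26) and 4.98 (SE 0.30) on the log2 scale, with no library of either tissue inside the range of the other. The gene AABR07052559.1 lies on the opposite strand across Hoxd4, and since none of the sources used here states whether counting used strand, its reads cannot be told apart from those of Hoxd4. Hoxd1, the most anterior member, was not tested and had 47 counts in 15 of 17 colon libraries, against 0 counts in ileum, at least 16.9-fold higher.

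Among Hoxd genes from Hoxd3 upward, counts in ileum ended between Hoxd9 and Hoxd10. Hoxd3, Hoxd4, Hoxd8 and Hoxd9 had counts in 14, 13, 14 and 17 of the 17 ileum libraries, and Hoxd10, Hoxd11, Hoxd12 and Hoxd13 in none. Pooled over libraries, colon exceeded ileum 30.8-fold for Hoxd3 (95% counting interval 23.4 to 41.3), 30.5-fold for Hoxd4 (23.3 to 40.8), 12.2-fold for Hoxd8 (9.35 to 16.3) and 26.5-fold for Hoxd9 (22.7 to 31.0). These exact intervals and the floors cover counting error only. The bounds for Hoxd10, Hoxd11 and Hoxd13 lie above the upper ends of all 4 intervals.

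The Hoxc genes showed the reverse, and Hoxc8, which patterns the lower thoracic region of the embryo, did so most. Hoxc8 was at 0 in 14 of 17 colon libraries and reached 0.144 CPM, against 5.79 to 17.5 CPM in ileum with a median of 9.37. The difference was -8.77 on the log2 scale (SE 0.30, adjusted p = 9.0e-23), from 4 counts in colon and 2967 in ileum. Pooled, ileum exceeded colon 687-fold, with a counting interval of 268 to 2525, which is wider than that SE would give. Of the 4 colon counts, 2 came from the library of D1M rat K3978, which also stood apart in its Hoxb genes, and without it the ratio was 1303-fold (360.4 to 10766).

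Hoxc4, Hoxc5 and Hoxc6, at the anterior end of the cluster and known for cervical and upper thoracic patterning, were lower in colon without being absent. Hoxc6 ranged from 0.322 to 1.88 CPM in colon with a median of 0.764, against 2.84 to 8.18 CPM in ileum with a median of 4.93, a difference of -2.60 (SE 0.16, adjusted p = 8.2e-16). Hoxc5 ranged from 0 to 0.824 CPM in colon with a median of 0.215, against 0.942 to 3.56 CPM in ileum with a median of 1.83, a difference of -2.95 (SE 0.27, adjusted p = 2.7e-11). Hoxc4 ranged from 0.172 to 1.77 CPM in colon with a median of 0.590, against 1.74 to 4.37 CPM in ileum with a median of 2.32, a difference of -2.04 (SE 0.22, adjusted p = 6.0e-10). In D3M rats alone the Hoxc4 difference was -1.14 and its call was lost (adjusted p = 0.062). For Hoxc4 the tissues met, since the highest colon library just passed the lowest ileum library.

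Hoxc9 and Hoxc10, known for thoracic and lumbar motor neuron identity, were sparse in ileum and sparser in colon. Hoxc9 had counts in 3 of 17 colon libraries, against 16 of 17 ileum libraries with a median of 0.683 CPM, and its difference was -4.77 (SE 0.48, adjusted p = 1.5e-10). Hoxc10 had counts in 3 of 17 colon libraries, against 15 of 17 ileum libraries, and was not tested. Pooled, ileum exceeded colon 4.19-fold for Hoxc4 (counting interval 3.54 to 4.98), 7.76-fold for Hoxc5 (6.04 to 10.1), 6.46-fold for Hoxc6 (5.59 to 7.49), 37.4-fold for Hoxc9 (15.8 to 117) and 24.1-fold for Hoxc10 (7.95 to 119). Without the colon library of K3978 the ratio of Hoxc9 was 59.1-fold (19.95 to 289), and without that of D1M rat K3989 it was 57.6-fold (19.4 to 282). The intervals of Hoxc8 and Hoxc9 lie above those of Hoxc4, Hoxc5 and Hoxc6, while that of Hoxc10 overlaps that of Hoxc5. In both clusters, then, the members that one tissue held at low but countable levels were those of lower paralogue number, and those at or near 0 were of higher number, from 10 upward for Hoxd in ileum and from 8 upward for Hoxc in colon. Hoxd1, sparse in colon and without counts in ileum, was the exception. Hoxc11, Hoxc12 and Hoxc13, with no count in either tissue, and Hoxd12, with 1 count in all, do not bear on this pattern.

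**Figure D2:**
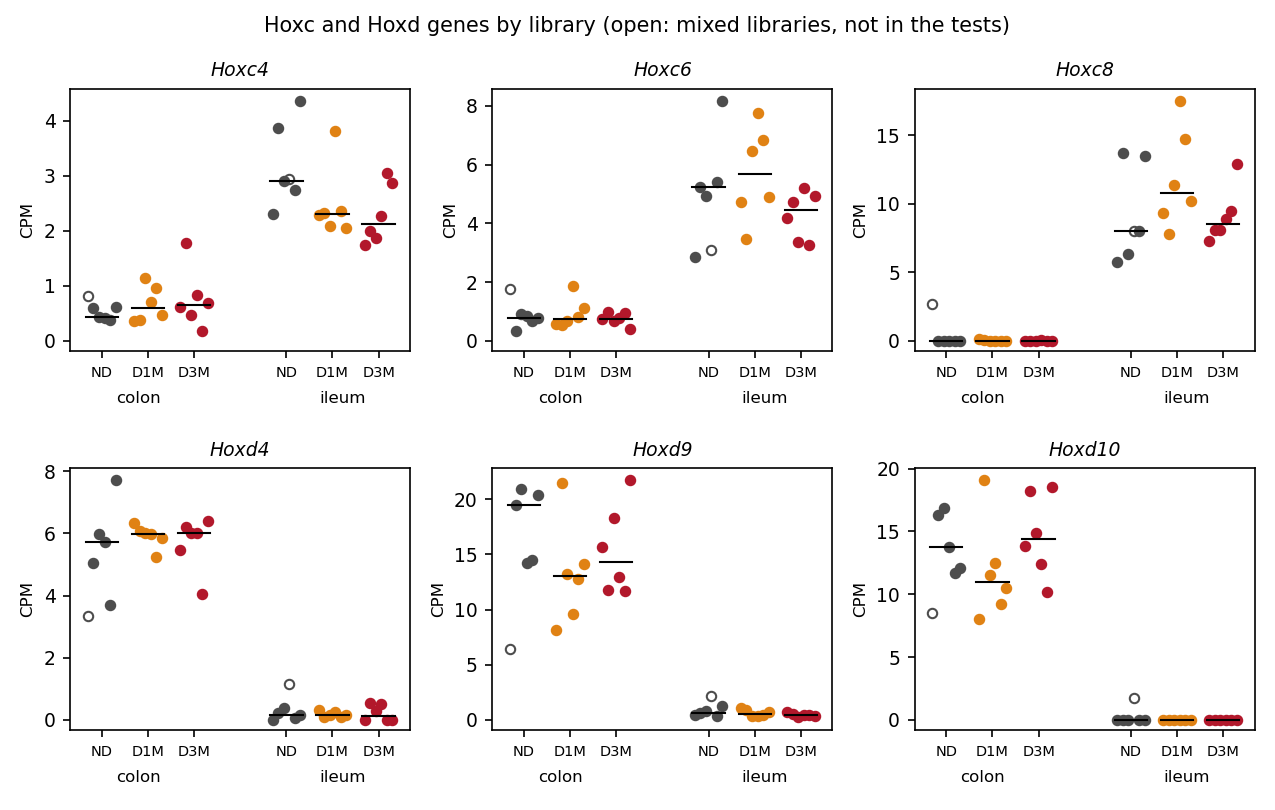
CPM of 3 Hoxc and 3 Hoxd genes in each library (vertical axes, linear), by tissue and group, with colon at left, a bar at the median, filled points for the 34 libraries used and open points for the 2 mixed ones. Hoxc8 is at or near 0 in colon and Hoxd10 at 0 in ileum in all filled points, and Hoxc4 has colon points that reach the lowest ileum points.

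The balance of the 2 clusters separated the tissues in every library. Hoxc genes made up 2.25% to 7.11% of the counts of Hoxc and Hoxd genes together in colon, against 89.8% to 97.6% in ileum. The counts behind a share numbered 413 to 1120 in a colon library and 216 to 672 in an ileum library. In the mixed ileum library of K4040 the share was 71.1% (95% exact binomial interval 66.5 to 75.3), and in the mixed colon library of K4028 it was 20.4% (17 to 24.1), outside the ranges of both tissues. In ileum K4040, Hoxd10 stood at 14.2% of the colon median and Hoxd9 at 15.3%, beside Car1 at 16.2% and Car2 at 16.4%. The other Hoxd genes tested varied more widely there. Hoxd11 had 0 counts, Hoxd8 stood at 8.41%, Hoxd3 at 14.8%, Hoxd4 at 19.5% and Hoxd13, from 3 counts, at 23.2%. In colon K4028, Hoxc8 stood at 29.1% of the ileum median, beside Fabp6 at 36.8% and the peptide transporter Slc15a1 at 41.7%. Hoxc4 stood there at 35.4%, Hoxc6 at 35.9% and Hoxc5 at 55.3%. Hoxc9 and Hoxc10 stood at 18.5% and 111%, from 2 and 4 counts. In the ileum library of P762, Car1 stood at 6.27% of the colon median and Car2 at 0.297%, while Hoxd10 had 0 counts, which allows up to 0.217 CPM.

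**Figure D3:**
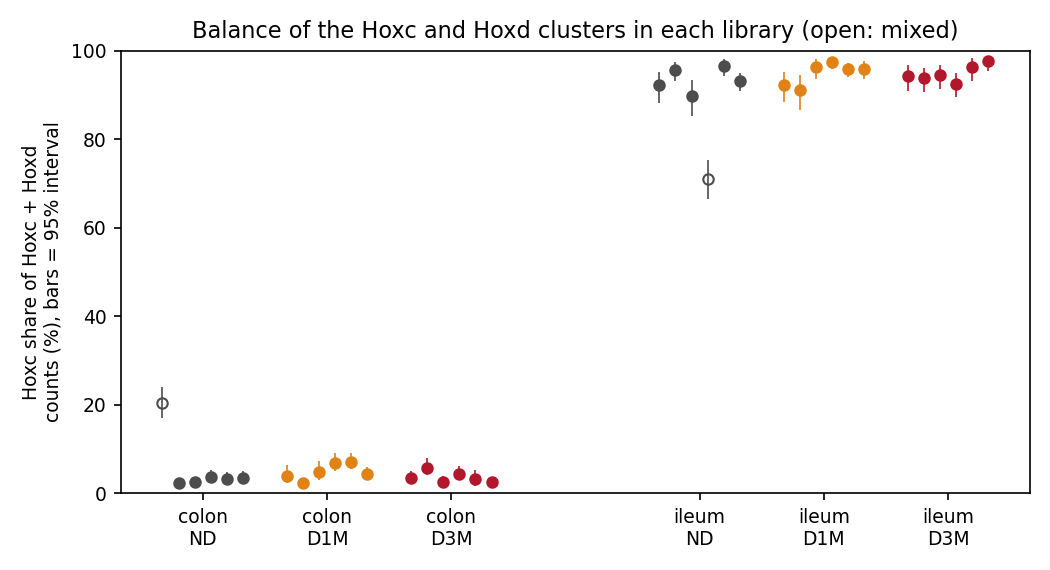
Hoxc counts as a percentage of Hoxc plus Hoxd counts in each library (vertical axis), with 95% exact binomial intervals that cover counting error only. The 17 colon libraries lie at 2.25% to 7.11% and the 17 ileum libraries at 89.8% to 97.6%, with the open points of the mixed libraries between them at 20.4% and 71.1%.

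Hoxb genes took the larger part of Hox counts in both tissues, 51.1% to 88.5% in colon and 76.3% to 91.0% in ileum. Levels are compared here within a gene and not between genes, because the lengths of their transcripts are not in the table. Hoxb7, which patterns ribs and is active in the kidney duct epithelium of the embryo, ranged from 10.8 to 129.7 CPM in colon with a median of 107, against 19.8 to 84.8 CPM in ileum with a median of 49.9. Its difference was 1.03 on the log2 scale (SE 0.21, adjusted p = 5.6e-05). Hoxb6, its neighbour in the trunk part of the cluster, ranged from 3.52 to 72.6 CPM in colon with a median of 54.3, against 7.57 to 40.2 CPM in ileum with a median of 24.6, a difference of 1.01 (SE 0.23, adjusted p = 0.00020). Hoxb5, which acts in the enteric nervous system and in lung, ranged from 6.39 to 42.0 CPM in colon with a median of 33.6, against 4.84 to 26.2 CPM in ileum with a median of 15.2, a difference of 1.05 (SE 0.19, adjusted p = 1.1e-05). In all 3 genes the lowest colon library was the same one and lay inside or below the ileum range.

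Hoxb8, also known for holding blood progenitors in an immature state, had the largest difference of the cluster. It ranged from 0.431 to 26.5 CPM in colon with a median of 12.5, against 0.526 to 4.94 CPM in ileum with a median of 3.72, a difference of 1.89 (SE 0.26, adjusted p = 1.2e-07). Hoxb4, known for expanding blood stem cells, ranged from 5.82 to 40.1 CPM in colon with a median of 22.7, against 4.52 to 15.1 CPM in ileum with a median of 8.14, a difference of 1.36 (SE 0.18, adjusted p = 3.7e-08). Hoxb3, a hindbrain gene, and Hoxb9, a rib gene, lie toward the margins of the measured stretch and differed less. Hoxb3 ranged from 0.287 to 7.23 CPM in colon with a median of 3.66, against 0.473 to 5.02 CPM in ileum with a median of 2.49, a difference of 0.66 (SE 0.25, adjusted p = 0.019). Hoxb9 ranged from 3.02 to 13.3 CPM in colon with a median of 9.50, against 2.58 to 12.3 CPM in ileum with a median of 6.59, a difference of 0.38 (SE 0.14, adjusted p = 0.019). Hoxb2, a hindbrain gene and the most anterior Hoxb member with counts, ranged from 1.10 to 4.48 CPM in colon with a median of 2.20, against 1.38 to 4.02 CPM in ileum with a median of 2.49, a difference of -0.28 (SE 0.17, adjusted p = 0.15).

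The calls of Hoxb3 and Hoxb9 were lost when tissues were compared within rats. With the rat as a block, the differences were 0.59 for Hoxb3 (edgeR, adjusted p = 0.069) and 0.26 for Hoxb9 (adjusted p = 0.17), and 17 of the 20 members were called. In D1M and D3M rats without ND rats, Hoxb3 at 0.39 (adjusted p = 0.28) and Hoxb9 at 0.27 (adjusted p = 0.24) also lost their calls. Hoxb13, at the far end of the cluster and known from distal colon and prostate, had 1 count in colon and none in ileum, and Hoxb1 had none in either.

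**Figure D4:**
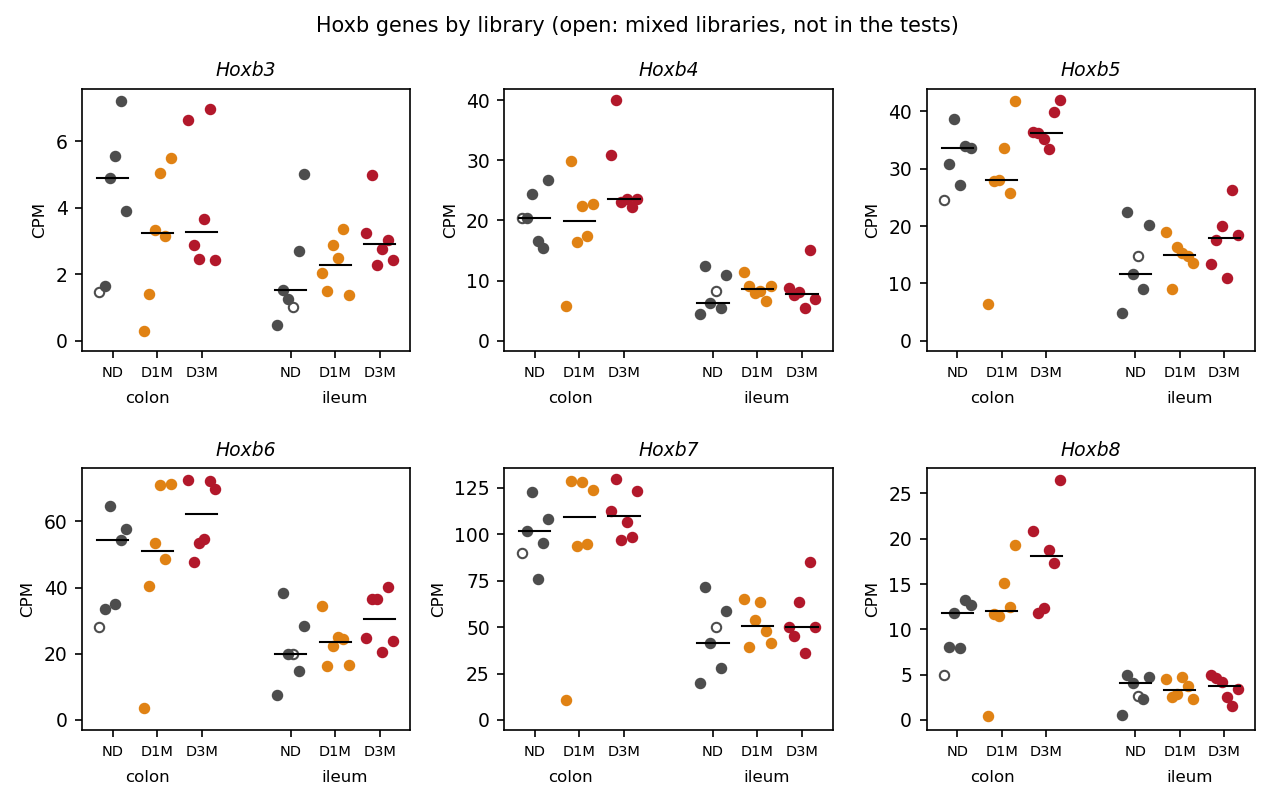
CPM of 6 Hoxb genes in each library (vertical axes, linear), by tissue and group, with colon at left, a bar at the median, filled points for the 34 libraries used and open points for the 2 mixed ones. The lowest colon point of each gene, in the D1M column, is the library of rat K3978, at 10.8 CPM for Hoxb7 where the other colon libraries lie at 75.9 to 129.7 CPM.

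The colon library of D1M rat K3978 stood apart from the other 16 colon libraries in its Hoxb genes. It was the lowest of the 17 for 7 of the 8 Hoxb genes tested. Hoxb8 stood at 0.034 times the median of the others, Hoxb6 at 0.065 times, Hoxb3 at 0.076 times and Hoxb7 at 0.10 times. Hoxb5 stood at 0.19 times, Hoxb4 at 0.25 times and Hoxb9 at 0.31 times, whereas Hoxb2 lay inside their range at 0.73 times. Among its Hoxd genes, Hoxd4 stood at 1.06 times the median, Hoxd3 at 0.65 times, Hoxd10 at 0.61 times, Hoxd9 at 0.57 times and Hoxd11 at 0.27 times. Hoxd3, Hoxd10 and Hoxd9 were also the lowest of the 17, and Hoxd11 was the second lowest. Hoxb genes accordingly made up 51.1% of its Hox counts.

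Markers of the tissue in that library were near those of the other colons. Car1 stood at 0.84 times their median and Car2 at 0.95 times. Its summed smooth muscle markers, 10 genes, were the highest of the 17 colon libraries at 21379 CPM, where the colon range began at 6349 CPM, and its 9 epithelial markers summed to 22873 CPM in a colon range of 14561 to 23642. The part of cell makeup in its Hoxb values was not tested. Without this library the tissue difference was 1.13 for Hoxb7, 1.12 for Hoxb6, 1.99 for Hoxb8 and 0.76 for Hoxb3, and the same number of members, 19, was called.

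In ileum the library of ND rat K4028 was the lowest of 17 for 7 of the 8 Hoxb genes. Hoxb7 stood there at 19.8 CPM, where the other ileum libraries lay at 27.9 to 84.8 CPM, and Hoxb8 at 0.526 CPM, where they lay at 1.59 to 4.94 CPM. Hoxc6 and Hoxc8 were also lowest in it, at 2.84 and 5.79 CPM. This library had the second highest sum of 8 B cell markers among the ileum libraries, 730 CPM in a range of 2.93 to 842, and a smooth muscle sum of 2139 CPM in a range of 1900 to 11181. At the other end, the ileum library of D3M rat P762 was the highest for Hoxb4, Hoxb5, Hoxb6 and Hoxb7, with 84.8 CPM of Hoxb7. Other Hoxb genes of that library went the other way, with Hoxb2 the lowest of the 17 at 1.38 CPM and Hoxb8 the second lowest at 1.59 CPM, which is 0.41 times the median of the others. Whether cell makeup had a part in these extremes was not tested.

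The spread between libraries of a tissue includes that between rats, groups and flow cells. Over the 16 colon libraries without K3978 the SD was 14.7% of the mean for Hoxb7, 15.0% for Hoxb5, 16.1% for Hoxd4 and 44.5% for Hoxb3. In ileum the SD of the Hoxb genes lay between 30.0% for Hoxb2 and 47.6% for Hoxb3.

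Smooth muscle and the other layers differed between the tissues along with the Hox genes, and in bulk tissue more cells of a type and more RNA per cell cannot be told apart. Of 10 smooth muscle markers, 8 were higher in colon and none lower, with a median difference of 0.85 on the log2 scale, and their sum ran from 6349 to 21379 CPM in colon and from 1900 to 11181 CPM in ileum. Of 10 neuronal and glial markers tested, 5 were higher and none lower. Of 9 epithelial markers, 1 was higher and 6 were lower. All of these sums overlapped between the tissues, unlike the Hoxd genes, and the ileal and colonic epithelial lists, which follow the labels, did not. Their part in the Hox differences was not tested.

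Cofactors and regulators of Hox genes also differed between the tissues, in both directions. Of 9 cofactors of the Pbx, Meis and Pknox families, 5 were higher and 2 lower in colon, with Pbx4 at 2.33 (SE 0.21) and Meis3 at 0.97 (SE 0.08) on the log2 scale, and Pbx2 at -0.31 (SE 0.05). Cdx1 and Cdx2, caudal genes that set intestinal identity, were the 2 of 6 caudal and ParaHox genes that could be tested, and both were higher, by 0.96 (SE 0.08) and 0.47 (SE 0.06). Of 29 Polycomb genes, 9 were higher and 16 lower, among them Phc1 at 0.76 (SE 0.06), Yaf2 at 0.58 (SE 0.05), Phf19 at -1.86 (SE 0.09) and Ezh2, the methyltransferase, at -0.71 (SE 0.10). Of 10 trithorax and MLL genes, 4 were higher and 4 lower, with Rbbp5 at 0.18 (SE 0.04), Dpy30 at 0.33 (SE 0.07), Wdr5 at -0.86 (SE 0.05) and Kdm6b at -1.23 (SE 0.15).

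Retinoic acid switches on anterior Hox genes in the embryo. The list for it held 16 genes of its synthesis, breakdown and receptors, of which 15 were tested. In colon 6 were higher and 5 lower, with Rarg, a receptor, at 1.41 (SE 0.07), Dhrs3 at 0.86 (SE 0.07), and the enzymes Aldh1a3 at -3.02 (SE 0.17) and Rdh10 at -1.11 (SE 0.07). Among 12 hindgut and regional genes tested, 4 were higher and 6 lower, with Gdf11 at 1.01 (SE 0.11), Gata5 at -8.85 (SE 0.20) and Gata6 at -0.84 (SE 0.08). Of 8 genes around the Hox clusters that were tested, 4 were higher and 1 lower, the highest being Mtx2 beside the Hoxd cluster at 1.10 (SE 0.05). The median over all genes tested was 0.02.

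By edgeR, no Hox gene passed the test between groups of rats in either tissue, and by limma voom 1 did, Hoxc6 in ileum of D3M against D1M rats. In ileum, 14 members were tested and none was called in D3M against ND by edgeR, where 7.81% of 13116 genes were called, and 2 had an unadjusted p under 0.05. These were Hoxc6 and Hoxc4. Hoxc6 stood at 3.26 to 5.19 CPM in 6 D3M ilea with a median of 4.46, against 2.84, 5.23, 4.95, 5.4 and 8.18 CPM in ND ilea, a difference of -0.57 (SE 0.25, adjusted p = 0.17). Hoxc4 stood at 1.74 to 3.04 CPM in D3M ilea with a median of 2.13, against 2.31, 3.87, 2.91, 2.75 and 4.37 CPM in ND ilea, a difference of -0.61 (SE 0.28, adjusted p = 0.18). The groups overlapped for both genes. Next came Hoxd9 at -0.73 (SE 0.49, adjusted p = 0.36), a low gene in ileum whose sign rested on the ND library of K4048. Without that library its difference was 0.27. Groups were spread unevenly over the flow cells, which were a term of the fit. Flow cell 2 held 3 of the 5 ND ilea and no D3M ileum, and flow cells 1 and 3 held 1 ND ileum each. Within a flow cell, D3M ilea could thus be set only against K4048 on flow cell 1 and K4028 on flow cell 3.

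Cell markers moved in the same comparison. Of 9 ileal epithelial markers, 7 were higher in D3M than in ND, their sum running from 44852 to 83524 CPM in D3M ilea and from 28225 to 46470 CPM in ND ilea. Fibroblast markers summed to 680 to 963 CPM in D3M ilea and to 730 to 1320 CPM in ND ilea, with 1 of 8 lower. Their part in the Hoxc values was not tested. Of the regulators, Phc2 at 0.58 (SE 0.10), Phf1 at 0.44 (SE 0.11), Rdh10 at 0.45 (SE 0.13) and Gata5 at 0.61 (SE 0.16) were higher in D3M, and Ash2l at -0.41 (SE 0.11) and Smug1 at -0.45 (SE 0.12), a repair gene near the Hoxc cluster, were lower. No other gene of the 7 lists of cofactors, regulators and neighbours was called in any comparison of groups.

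Between D1M and D3M ilea no Hox gene passed the edgeR test either. In D3M against D1M none of 14 was called, 1 had an unadjusted p under 0.05, and 1.94% of all genes were called. Hoxc6 stood at 3.26 to 5.19 CPM in D3M ilea, against 3.48 to 7.75 CPM in D1M ilea with a median of 5.68, a difference of -0.50 (SE 0.20, adjusted p = 0.18). Hoxc8 stood at 7.32 to 12.9 CPM in D3M ilea with a median of 8.51, against 7.80 to 17.5 CPM in D1M ilea with a median of 10.8, a difference of -0.44 (SE 0.24, adjusted p = 0.33), and Hoxc5 differed by -0.42 (SE 0.29, adjusted p = 0.46). With limma voom and quality weights, Hoxc6 was called, at -0.62 (adjusted p = 0.045). In this comparison 3 of 9 ileal epithelial markers were higher, their sum running from 44852 to 83524 CPM in D3M ilea and from 39641 to 51706 CPM in D1M ilea. Of 8 fibroblast markers, 1 was lower, with sums of 680 to 963 CPM in D3M ilea and 820 to 1201 CPM in D1M ilea. Their part in the Hoxc6 value was not tested. In D1M against ND none of 14 was called, none had an unadjusted p under 0.05, and 0.00762% of all genes were called. The smallest p belonged to Hoxc4 at -0.43 (SE 0.26), Hoxb7 at 0.22 (SE 0.36) and Hoxc8 at 0.17 (SE 0.29), with adjusted p of 0.84 to 0.95. The signs of Hoxb7 and Hoxc8 turned without the ND library of K4028, to -0.22 and -0.17.

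In colon, 17 members were tested and none was called by edgeR in any comparison of groups. For D3M against ND, where 0.0308% of 13005 genes were called, none had an unadjusted p under 0.05. Hoxb8 stood at 11.8 to 26.5 CPM in D3M colons with a median of 18.1, against 7.97 to 13.2 CPM in ND colons with a median of 11.8, a difference of 0.81 (SE 0.51, adjusted p = 0.70). The ranges of these groups overlapped only between 11.8 and 13.2 CPM. Hoxd8 differed by -0.40 (SE 0.28) and Hoxc4 by 0.67 (SE 0.50), with adjusted p of 0.73 and 0.75.

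For D1M against ND in colon, where 0% of all genes were called, 1 member had an unadjusted p under 0.05. This was Hoxd8, at 1.37 to 2.52 CPM in D1M colons with a median of 1.93, against 2.42, 3.61, 2.35, 4.39 and 2.83 CPM in ND colons, a difference of -0.62 (SE 0.26, adjusted p = 0.98). A single D1M library lay above the lowest ND library. Hoxd9 differed by -0.45 (SE 0.23) and Hoxd13 by -0.61 (SE 0.39), both with an adjusted p of 0.98. For D3M against D1M, where again 0% of all genes were called, no member had an unadjusted p under 0.05, and Hoxd10 at 0.36 (SE 0.21), Hoxb4 at 0.53 (SE 0.31) and Hoxb5 at 0.47 (SE 0.28) had the smallest p, all with an adjusted p of 0.92. The D1M group holds the library of K3978.

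**Figure D5:**
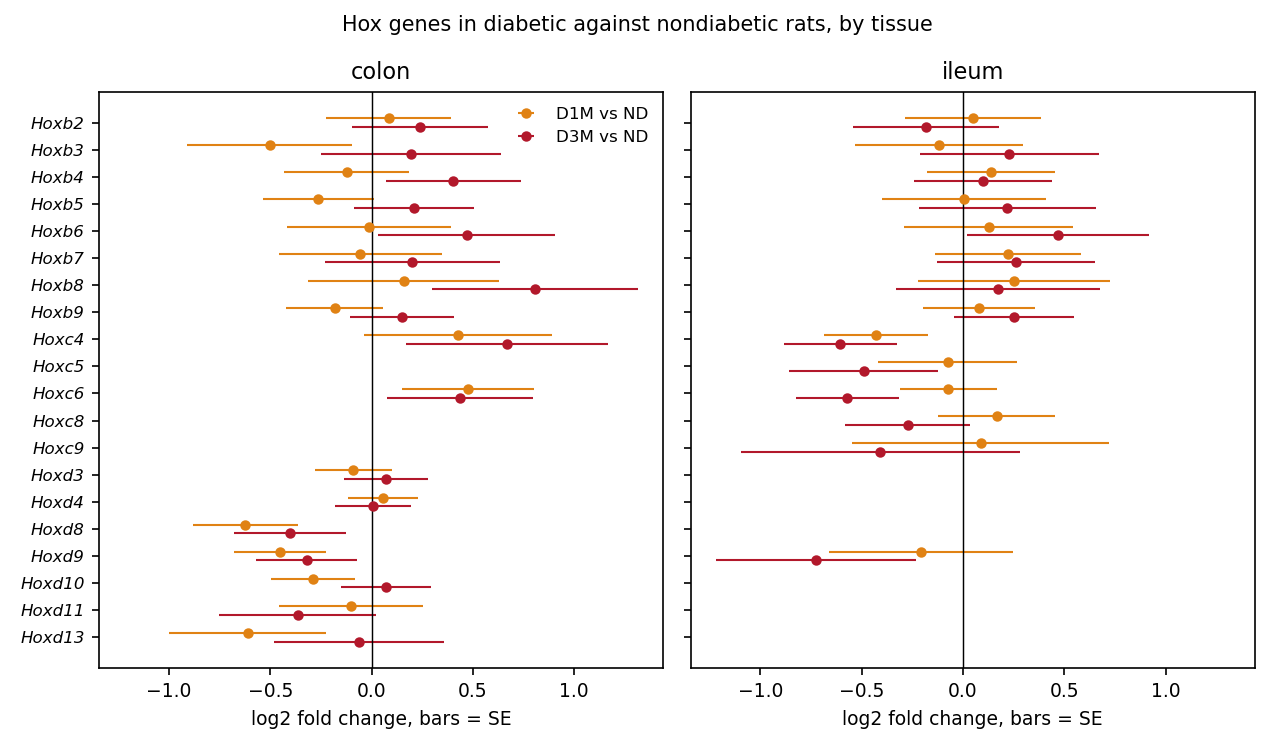
Fitted log2 fold change of D1M and D3M rats over ND rats (horizontal axes) for each Hox gene tested, in colon at left and in ileum at right. Bars are standard errors worked back from the F test. Values run from -0.62 to 0.81 in colon and from -0.73 to 0.47 in ileum, and none passed the adjusted edgeR test, with missing points for genes not tested in that tissue.

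The difference between tissues was itself compared between groups. For D3M against ND, colon minus ileum, none of 20 members was called and 2 had an unadjusted p under 0.05, where 0.268% of all genes were called. These were Hoxc6 at 0.96 (SE 0.43, adjusted p = 0.41) and Hoxc4 at 1.23 (SE 0.57, adjusted p = 0.43), followed by Hoxd8 at 1.25 (SE 0.78, adjusted p = 0.63). For D1M against ND, where 0.00725% of genes were called, no member had an unadjusted p under 0.05, and Hoxc4 at 0.85 (SE 0.53), Hoxc8 at 1.75 (SE 1.04) and Hoxc6 at 0.55 (SE 0.39) came first, each with an adjusted p of 1.0. For D3M against D1M, where 0% of genes were called, none had one either, and Hoxd9 at 0.60 (SE 0.46), Hoxb4 at 0.52 (SE 0.44) and Hoxd8 at 0.83 (SE 0.72) came first, with adjusted p of 0.75 to 0.79. These comparisons share the libraries of the contrasts above and are no separate support for them. DESeq2 called no member in any comparison between groups, and voom none but Hoxc6 as given.

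Libraries were run on 3 flow cells, which were a term in every main fit. Flow cell 1 held no D3M colon. Without the flow cell term, the tissue difference of Hoxb9 was 0.35 and its call was lost (edgeR, adjusted p = 0.068). No member was called between flow cells in ileum, where 4.68% of genes were called and Hoxb9, Hoxc6 and Hoxb3 had an unadjusted p under 0.05 (smallest adjusted p = 0.11). In colon none was called either, where 9.7% of genes were called and Hoxb9 and Hoxb3 had an unadjusted p under 0.05 (adjusted p = 0.075 and 0.088). Within flow cells, the Hoxd and Hoxc differences kept their calls wherever they were tested, whereas on flow cell 3 alone, which holds the colon of K3978, the calls of Hoxb3, Hoxb5, Hoxb6, Hoxb7, Hoxb8 and Hoxb9 were lost. Their differences there ran from 0.08 for Hoxb3 to 2.12 for Hoxb8. On flow cell 1 alone, Hoxb3 at 0.30 (adjusted p = 0.35) and Hoxb9 at 0.10 (adjusted p = 0.74) lost their calls as well, and Hoxb2 gained one at -0.72 (adjusted p = 0.030).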

How the data were processed

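Poly(A) RNA of distal ileum and proximal colon was sequenced from stranded libraries, and the authors aligned reads to rn6 with STAR and counted them per gene in SeqMonk. Of the deposited tables, only the raw counts were used here. Hox members and all gene lists were chosen with earlier results of these data known. Tests used edgeR 4.0.16 in R 4.3.3 (filterByExpr, TMM, quasi-likelihood F test, Benjamini-Hochberg threshold 0.05), with group, flow cell and, between tissues, tissue as terms. Each fit covered all genes. The SE given is the size of the log2 difference divided by the square root of F, worked back from the edgeR test. For members at or near 0 in a tissue it understates the uncertainty of the ratio. DESeq2 1.42.0 and limma voom 3.58.1 were alternatives, as were no filter, no flow cell term, subsets, left-out libraries and the rat as block. Displayed CPM used TMM factors over 36 libraries. The tissues share rats (16 complete pairs), and the same-rat correlation of deviations had a median of -0.02 (-0.70 to 0.75).

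Members with a median of at least 1 CPM in a tissue got values per library. Group comparisons name the 3 members with the smallest p, and lists at most 2 genes in each direction, of which some are not reported here. The fits were tested on simulated data with known changes, drawn with the same spread for every gene and without flow cell effects. The rats were separate animals. Leaving out colon K3978 and ileum P762 together, and each library in turn from the pooled ratios, were chosen after seeing the data. Median depth was 14617582 counts in colon and 18153558 in ileum.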

Additional observations from a re-analysis of the deposited data

Results flagged for a closer look

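Of 109 sets of libraries of 1 tissue and group examined over 20 Hox genes, 8 held a library set apart from the rest by Dixon's criterion. For separate sets of normally distributed values, chance gives about 1 in 20. The sets here share libraries, and a set with counts in a single library is always flagged, so the number flagged cannot be read against that rate. In D3M ilea, Hoxb3 stood at 5.00 CPM in rat K3961 (others 2.28 to 3.25) and Hoxb4 at 15.1 CPM in rat P762 (others 5.50 to 8.77). In D1M colons, rat K3978 had 10.8 CPM of Hoxb7 (others 93.6 to 128.6) and 0.359 CPM of Hoxd11 (others 1.23 to 1.62). In D1M ilea, Hoxc4 stood at 3.82 CPM in rat K3988 (others 2.05 to 2.36) and Hoxc9 at 1.08 CPM in rat K3990 (others 0.594 to 0.726). Hoxc8 in the D3M colon of K3980, at 0.0590 CPM, and Hoxc9 in the ND colon of K4040, at 0.0604 CPM, were each a single count where the other libraries had none.

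The libraries left out for holding RNA of both tissues carried Hox genes of the other tissue above the range of the libraries used. Ileum K4040 had 0.863 CPM of Hoxd3, 1.17 of Hoxd4, 2.18 of Hoxd9 and 1.78 of Hoxd10. Colon K4028 had 1.01 CPM of Hoxc5, 2.72 of Hoxc8 and 0.253 of Hoxc10. Its Hoxd13 level, 2.09 CPM, was also above the other colons (0.257 to 1.29). The ileum libraries used had no count of that gene, and ileum K4040 had 3.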

How the results depend on the processing

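Among recomputed counts of called or separated Hox genes, 442 stayed within 1.5 times the value reported and 5 did not. Most of the former came from comparisons of groups or flow cells in which no member was called before or after. Among recomputed values of single genes, 1917 kept direction and side of the threshold, 21 lost a call, 2 gained one and 5 changed sign. In D1M rats alone, 11 members were called between colon and ileum rather than 19, with the calls of Hoxb3, Hoxb5, Hoxb6, Hoxb7 and Hoxb9 lost and Hoxc9, Hoxd11 and Hoxd13 below the filter. With voom, 1 member was called in ileum D3M against D1M rather than 0. With all 36 libraries, 2 were called between flow cells in colon rather than 0, and leaving out 1 library gave 0 to 1. With the rat as replicate block, Hoxb9 at 0.26 and Hoxb3 at 0.59 lost the call between tissues, 17 members were called, and no other call changed. Leaving out 1 library turned Hoxd9 in ileum D3M against ND (-1 to 0.27), and Hoxb7 (-0.22 to 0.64) and Hoxc8 (-0.17 to 0.41) in ileum D1M against ND. With all 36 libraries, D1M against ND, colon minus ileum, was -3.68 for Hoxc8 and -0.01 for Hoxc6, and the mixed libraries entered that fit. The cause of the other changes was not tested. Low counts limit Hoxc genes in colon and Hoxd genes in ileum, and the 2 sites do not show where along the gut a change lies.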
